A study of Homo sapiens with 8 samples.

Results

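NR1I2, TCEAL5, VAV1, CHP2 and NLRP10 are 5 protein-coding genes that were all but silent in wild-type human embryonic stem cells (hESCs) and were read in both libraries of CHD7 knockout cells. They were chosen by their read counts in that same contrast, with 0 or 1 counts in each WT library and clear counts in both CHD7 knockout libraries, out of 57773 genes counted. Their difference between CHD7 knockout and WT is therefore given as a description and carries no test.

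RNA was measured by strand-specific, rRNA-depleted RNA-seq in H9, an established pluripotent hESC line grown in mTesR1 medium, with 2 libraries in each of 4 conditions. WT cells were untreated and carried an HA tag on the endogenous CHD7 protein. CHD7 KO cells were labelled CHD7 -/- and untreated, and null lines were made by editing exon 2 of CHD7 and growing out clones. HERVH KD cells had the WT genotype and were harvested 24 h after LNA-GapmeRs, antisense oligonucleotides against HERVH endogenous retrovirus RNAs, were added, whereas HERVH KO cells were untreated and lacked a single HERVH element on chromosome 2. The labels do not say whether the 2 libraries of a condition came from separate clones or cultures, and HERVH KD was set against untreated WT, so that the GapmeR treatment and the loss of HERVH RNA cannot be told apart.

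CHD7 is a chromatin remodeler that uses ATP to move nucleosomes and is found mainly at enhancers. Genes of differentiated tissues are kept silent in pluripotent cells, and most of the 5 genes are best known from such a tissue. NR1I2 encodes the pregnane X receptor (PXR), a nuclear receptor that binds drugs and bile acids in liver and intestine and turns on genes of drug metabolism. VAV1 is a guanine nucleotide exchange factor that acts below antigen receptors in blood cells. CHP2 is a calcineurin B homologous protein, a calcium-binding cofactor of Na+/H+ exchangers. NLRP10 is an NLR family protein without the leucine-rich repeats of its relatives, known mainly from skin. TCEAL5 belongs to a family of small X-linked proteins that resemble a transcription elongation factor and are mostly known from neural tissue.

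The starts of these genes differ widely in CG content, and 3 promoters are shown because they span that range. The sequences are from RefSeq on GRCh38.p14, cover 250 bases before and 50 after an annotated start, and have every CG dinucleotide in capitals. 4 of the 5 genes matched an entry, with 5 promoters in all. The second NR1I2 start lies at chr3:119782460-119782759 on the plus strand, the TCEAL5 start at chrX:103276701-103277000 on the minus strand, and the CHP2 start at chr16:23754776-23755075 on the plus strand.
NR1I2: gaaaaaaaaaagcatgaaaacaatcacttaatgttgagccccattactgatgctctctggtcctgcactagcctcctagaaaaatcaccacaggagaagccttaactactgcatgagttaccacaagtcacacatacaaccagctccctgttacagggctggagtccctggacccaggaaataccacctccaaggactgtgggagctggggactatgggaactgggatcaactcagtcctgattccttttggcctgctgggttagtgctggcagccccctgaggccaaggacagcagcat
TCEAL5: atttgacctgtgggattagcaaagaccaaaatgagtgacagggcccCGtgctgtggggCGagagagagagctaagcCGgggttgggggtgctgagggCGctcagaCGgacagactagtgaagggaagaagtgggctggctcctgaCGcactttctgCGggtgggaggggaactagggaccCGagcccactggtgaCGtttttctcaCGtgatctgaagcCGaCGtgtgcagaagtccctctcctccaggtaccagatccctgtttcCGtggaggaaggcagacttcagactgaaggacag
CHP2: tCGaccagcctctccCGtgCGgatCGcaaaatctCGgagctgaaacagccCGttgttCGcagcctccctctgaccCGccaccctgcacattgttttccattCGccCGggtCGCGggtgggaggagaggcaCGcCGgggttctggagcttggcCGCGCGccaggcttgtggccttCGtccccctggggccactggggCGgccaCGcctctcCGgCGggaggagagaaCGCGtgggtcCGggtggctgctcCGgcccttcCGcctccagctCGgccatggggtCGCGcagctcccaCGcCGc

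The second NR1I2 promoter held 0 CG dinucleotides and the first held 5. VAV1 had 12, TCEAL5 13 and CHP2 32, against a median of 14 over 35116 promoters in the table. The ratio of observed to expected CG, which corrects for base composition, was 0 and 0.33 for the NR1I2 promoters, 0.38 for VAV1, 0.54 for TCEAL5 and 0.86 for CHP2, with a median of 0.58 over all promoters. The genes thus shared no one promoter class by this measure: CHP2 had more CG dinucleotides than 81.1% of all promoters, whereas the first NR1I2 promoter had more than 29.6% and no promoter had fewer than the second. Short motifs were searched on both strands. The TATA box motif TATAAA was in none of the 5 promoters and in 11.5% of all promoters. The motif CCAAT was likewise in none of the 5 and in 34.6% of all, and the octamer ATGCAAAT in none and in 1.77%. GGGCGG was found in CHP2 and VAV1 and in 45.0% of all promoters, and CACGTG in TCEAL5 alone among the members and in 7.26% of all. These matches are descriptions of the letters only.

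**Figure D1:**
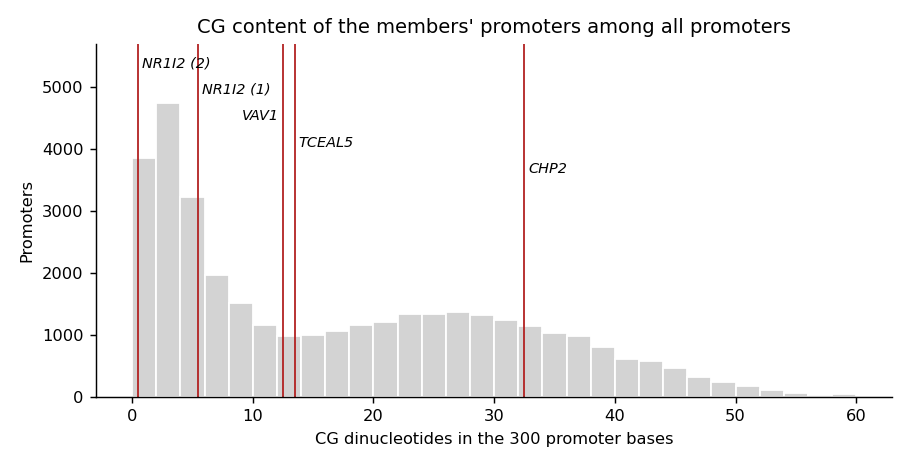
Histogram of the number of CG dinucleotides (x axis) in all promoters of the RefSeq table (y axis, number of promoters, in bins of 2), with red lines at the 5 promoters of NR1I2, VAV1, TCEAL5 and CHP2. The NR1I2 promoters, with 0 and 5, stand in the CG-poor peak, VAV1 and TCEAL5, with 12 and 13, near the dip beside the median of 14, and CHP2, with 32, in the CG-rich shoulder.

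Libraries held 14802049 to 23156445 counts on genes, so that 3 counts, used here as the floor of detection, correspond to 0.128 to 0.218 CPM, the count scaled to a common library size. CHD7 itself stood at 651.0 and 649.5 CPM in WT and at 197.3 and 197.2 CPM in CHD7 KO, in the direction of the label. Since such an edit leaves the other exons to be counted, this level does not measure the loss of the protein. CHD7 was at 625.6 and 514.3 CPM in HERVH KD and at 710.6 and 690.5 CPM in HERVH KO. All 12 markers of pluripotency, among them POU5F1, SOX2 and NANOG, were over the floor in every condition, and their summed level was 7098 to 7135 CPM in WT and 7226 to 8543 CPM in CHD7 KO.

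NR1I2 (ENSG00000144852, GRCh37 chr3:119499331-119537334, plus strand) had 0 and 0 counts in WT, against 51 and 48 in CHD7 KO. In HERVH KD it had 1 and 3 counts, and in HERVH KO 2 and 1. Only the CHD7 KO libraries were above the floor, and they did not overlap with any other. Normalized, the receptor gene was at 2.36 and 2.58 CPM in CHD7 KO (mean 2.47 ± 0.159, SD, n = 2). Over both libraries, this was 35.3-fold the level that 3 counts summed over both WT libraries would give. The floor of 3 counts in each WT library lies higher, at 0.139 and 0.140 CPM, so the fold over it is smaller. The pair of CHD7 KO libraries differed by less than counting error, with a ratio of replicate 1 to replicate 2 of 0.913 (95% interval 0.603 to 1.38). In these bulk samples, fewer cells that make a gene's RNA and less RNA per cell cannot be told apart. PHB1P8, a processed pseudogene inside NR1I2, had at most 2 counts in any library.

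VAV1 (ENSG00000141968, GRCh37 chr19:6772719-6857377, plus strand) had 1 and 0 counts in WT. In CHD7 KO it had 101 and 47, the former the highest count of the 5 genes in a single library. HERVH KD had 0 and 2 counts and HERVH KO had 0 and 0. VAV1 was the gene whose CHD7 KO libraries differed most: they stood at 4.67 CPM (95% counting interval 3.80 to 5.67) and 2.53 CPM (1.86 to 3.36), a ratio of 1.85 (1.29 to 2.67) that counting error does not cover. Among 5562 genes with a mean of 1 to 5 CPM in CHD7 KO, the larger of the replicates exceeded the smaller by a median of 1.33-fold and by 2.60-fold at the 95th percentile, so that the VAV1 spread lay within what other genes of its level showed. Against the single WT count the ratio was 158 (28.0 to 6296), a wide interval because it rests on 1 count. Without CHD7 KO replicate 1 this ratio was 109 and without replicate 2 it was 201.

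CHP2 (ENSG00000166869, GRCh37 chr16:23766347-23770256, plus strand) was the cleanest of the 5, with 0 counts in all 6 libraries outside CHD7 KO. In CHD7 KO it had 47 and 43 counts, or 2.17 and 2.31 CPM (mean 2.24 ± 0.0996, SD, n = 2). That is at least 32.1-fold higher than the floor over both WT libraries. Its replicates differed by less than counting error (ratio 0.939, 0.608 to 1.45).

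NLRP10 (ENSG00000182261, GRCh37 chr11:7979084-7986994, minus strand) was the weakest. It had 0 and 1 counts in WT, 46 and 25 in CHD7 KO, 1 and 0 in HERVH KD and 1 and 2 in HERVH KO. The CHD7 KO values of 2.13 and 1.34 CPM (mean 1.74 ± 0.552, SD, n = 2) had a ratio of 1.58, with an interval of 0.951 to 2.69 that includes 1. The ratio to the single WT count was 76.0 (13.2 to 3042).

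TCEAL5 (ENSG00000204065, GRCh37 chrX:102528619-102531678, minus strand) had 1 and 0 counts in WT, against 75 and 56 in CHD7 KO. In HERVH KD it had 3 and 0 counts and in HERVH KO 0 and 1. Its CHD7 KO values were 3.47 and 3.01 CPM (mean 3.24 ± 0.321, SD, n = 2), with a ratio between replicates of 1.15 (0.803 to 1.66). The ratio to the single WT count was 140 (24.7 to 5577). TCEAL5 is the only one of the 5 with a close copy among other genes: its transcript aligns over 79.4% of its length to TCEAL6 at 90.3% identity, so reads could be split between them or lost. TCEAL6 had 3 and 3 counts in WT, against 1 and 1 in CHD7 KO, without the TCEAL5 difference. For NR1I2, NLRP10 and CHP2 the longest alignment to another gene covered 5.16%, 6.18% and 21.9% of the transcript, and for VAV1 none was found at 85% identity.

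**Figure D2:**
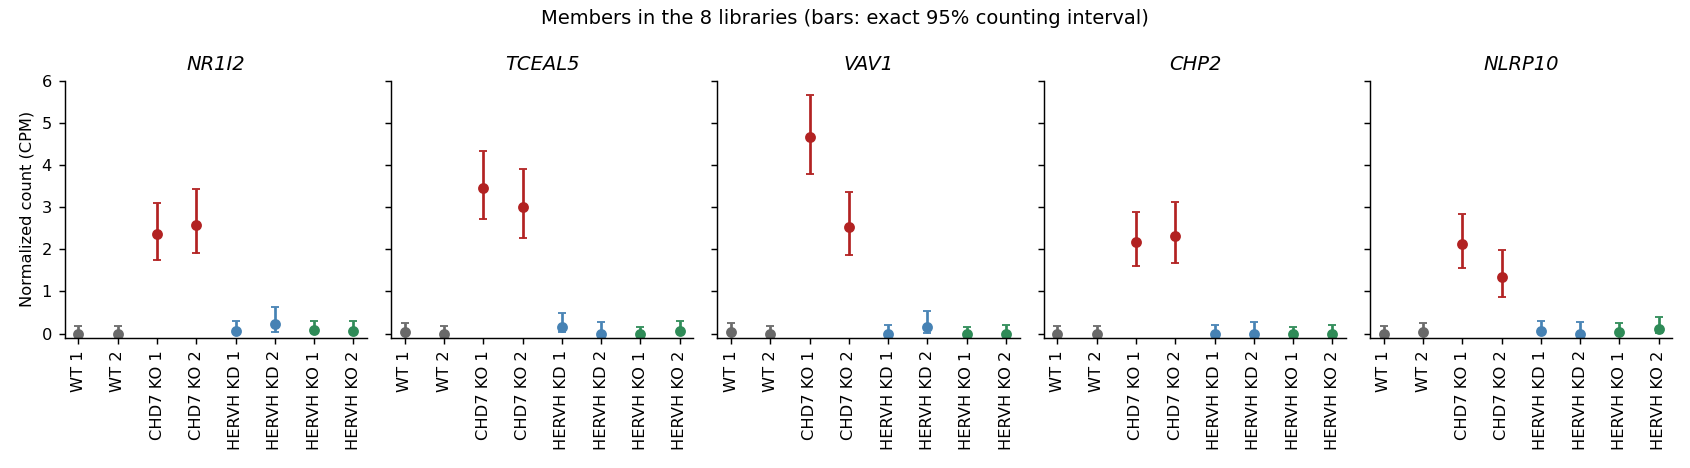
Normalized counts (y axis, CPM) of NR1I2, TCEAL5, VAV1, CHP2 and NLRP10 in each of the 8 libraries (x axis, condition and replicate), with points for libraries and bars for the exact 95% counting interval. Each gene lies between 1.34 and 4.67 CPM in the CHD7 KO libraries, and the 6 other libraries lie at or close to 0.

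Across the 5 genes and the 6 libraries outside CHD7 KO there were 30 values, of which 17 were 0 and the largest was 3 counts; all 30 together came to 20 counts. The 3 conditions other than CHD7 KO could therefore not be ordered for any of the 5 genes at this depth, and no fold between them is given. 2 of the genes, NR1I2 and CHP2, were at 0 in both WT libraries; CHP2 alone was at 0 in both HERVH KD libraries; VAV1 and CHP2 were at 0 in both HERVH KO libraries.

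The 5 genes were low even where they were on. The median gene tested stood at 5.96 CPM in CHD7 KO, and the 5 genes ranked between the 33.8th percentile (NLRP10) and the 44.2nd (VAV1). Per kilobase of annotated exon (RPKM), which allows levels to be compared between genes, TCEAL5 was highest in CHD7 KO at 3.10 ± 0.307 RPKM (SD, n = 2). CHP2 followed at 1.14 ± 0.0506, VAV1 at 0.835 ± 0.351, NR1I2 at 0.459 ± 0.0295 and NLRP10 at 0.391 ± 0.124 RPKM. The step from TCEAL5 to CHP2 exceeded the spread of replicates, whereas CHP2 and VAV1 differed by less than the SD of VAV1, and the ranges of NR1I2 and NLRP10 overlapped. Only TCEAL5 was above the median of 2.51 RPKM over the genes tested.

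With clear counts taken as at least 20 in each library, 8 of 57773 genes (0.0138%) were on in CHD7 KO and at 0 or 1 counts in each WT library. Besides the 5 genes these were OR5H2, an olfactory receptor gene, with 28 and 32 counts in CHD7 KO and 0 and 0 in WT, DPEP3, a membrane dipeptidase gene known from testis, with 31 and 20 against 0 and 0, and the lncRNA gene ENSG00000249842, with 22 and 27 against 0 and 0. NLRP10, with 25 counts in its lower CHD7 KO library, is the member nearest the limit. Just outside it was OR5H6, another olfactory receptor gene, with 19 and 26 counts. The limit of 20 sets the number of genes: at least 10 counts gave 21 genes and at least 40 gave 4, all of them members, with NLRP10 lost.

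The same rule found no gene that was on in HERVH KD and off in WT (0% of 57773) and none that was on in HERVH KO and off in WT (0%). It uses unscaled counts, and HERVH KD had the smallest libraries, with 17784957 and 14802049 counts on genes. A gene was thus less easily on, and more easily off, in HERVH KD. In the other direction, 0 genes were on in WT and off in CHD7 KO, 0 were off in HERVH KD and 5 were off in HERVH KO. CHD7 KO against HERVH KD gave 17 genes, 2 of them members, and CHD7 KO against HERVH KO gave 18, with 3 members; the other members missed these only through libraries with 2 or 3 counts. Allowing up to 3 counts in each of the 6 other libraries, a limit set after the counts were seen, 10 genes were on in CHD7 KO alone. They were the 5 members, OR5H2, DPEP3, ENSG00000249842, the sodium-calcium exchanger gene SLC8A3 (20 and 23 counts in CHD7 KO, at most 2 elsewhere) and MALL, a proteolipid gene (38 and 36 counts, at most 3 elsewhere). 0 genes were on in WT, HERVH KD or HERVH KO alone. With the limits reversed, 1 gene, FOXB2, was off in CHD7 KO alone. PI15 was the 1 gene off in HERVH KD alone, 3 were off in HERVH KO alone and 0 in WT alone.

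**Figure D3:**
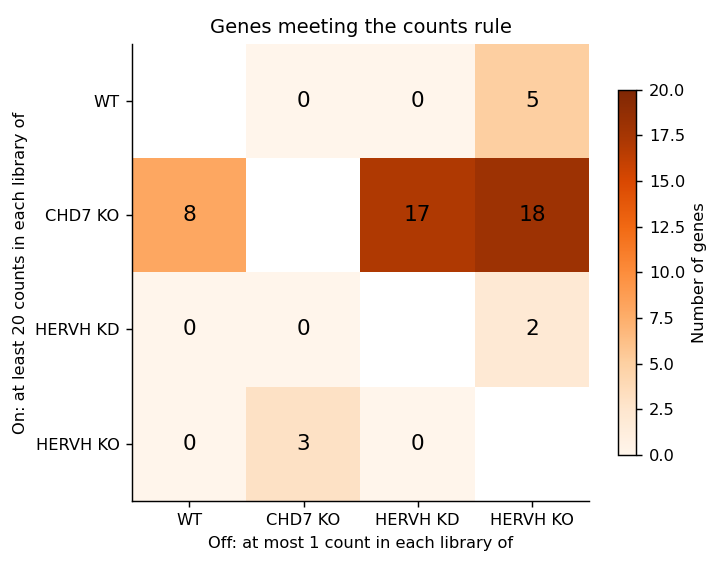
Number of genes, out of 57773, with at least 20 counts in each library of the row's condition and at most 1 count in each library of the column's condition. The CHD7 KO row holds 8, 17 and 18 genes, and the other cells hold 0 to 5.

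The 5 genes can be set against the whole contrast. Of 23474 genes that passed the filter on low counts, 79 were called higher in CHD7 KO than in WT (0.337%) and 55 lower (0.234%) by edgeR's quasi-likelihood test at an FDR (Benjamini-Hochberg) under 0.01 and with 2-fold or more between groups. Leaving out any 1 of the 4 libraries of WT and CHD7 KO took these counts to 17 to 27 and 8 to 24. All 5 members passed the filter, through the CHD7 KO libraries alone, and all 5 were among the 79; they were chosen on this same contrast, so nothing is read from that count. The 3 other genes that met the counts rule at 20 passed the filter too and were not called. In HERVH KD, 19 genes (0.0809%) were called higher and 32 (0.136%) lower than in WT, and in HERVH KO 0 (0%) were called higher and 7 (0.0298%) lower. None of the 5 members was among them, and nothing is read from that. With 0 or 1 counts in each WT library and at most 3 in these conditions, a call was hardly possible. With any 1 library left out, the HERVH KD counts ranged from 2 to 455 and from 0 to 451. For the call of 0 in HERVH KO, DESeq2 also gave 0, and 617 genes had an unadjusted edgeR quasi-likelihood p under 0.05 in either direction.

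Families and pathways of the 5 genes were described next, from lists that leave the members themselves out. Of 94 listed genes, 74 passed the filter, and 1 was called higher and 0 lower in CHD7 KO by edgeR's quasi-likelihood test; 9 (12.2%) had an unadjusted p under 0.05, beside 10.9% of all genes tested, and DESeq2 called the same gene. The median log2 fold change over the 74 was 0.02, beside -0.01 over all genes tested.

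The gene called was in the PXR list, where 14 of 20 genes passed the filter, with a median log2 fold change of 0.07. CYP2B6 (ENSG00000197408, GRCh37 chr19:41497187-41524303), a cytochrome P450 that oxidises drugs and a classical target of PXR, had 486 and 398 counts in WT. In CHD7 KO it had 2790 and 2248, in HERVH KD 352 and 214, and in HERVH KO 353 and 284. The CHD7 KO libraries lay far above the 6 others. CYP2B6 rose from 20.5 ± 2.71 to 124.9 ± 5.67 CPM (SD, n = 2 each), a log2 fold change of 2.61 (SE 0.18, FDR 6.5e-06 by edgeR's quasi-likelihood test with Benjamini-Hochberg adjustment over all genes). The transcript aligns over 96.1% of its length to CYP2B7P at 94.6% identity, so its count is uncertain to the extent that reads could fall on either; CYP2B7P itself had at most 6 counts in any library.

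No other gene of the PXR list was called. CYP3A4 had 34 and 10 counts in WT, against 18 and 20 in CHD7 KO (log2 fold change -0.10, SE 0.62). ABCB1, the drug efflux pump, had 14 and 21 counts in WT, against 48 and 45 in CHD7 KO, a log2 fold change of 1.5 (SE 0.51) that missed the threshold (FDR 0.201 by edgeR's quasi-likelihood test with Benjamini-Hochberg adjustment). RXRA, the partner with which PXR binds DNA, was present at 4.60 RPKM in WT and 3.33 RPKM in CHD7 KO. RXRG and the bile acid receptor gene NR1H4 were at 0 counts throughout. NR1I3, the closest relative of PXR, had 37 and 36 counts in WT, against 43 and 45 in CHD7 KO.

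In the VAV list, 18 of 20 genes passed the filter and 0 were called in either direction, with 1 at an unadjusted edgeR quasi-likelihood p under 0.05 and 0 called by DESeq2. The median log2 fold change was -0.10. VAV2 and VAV3, the paralogs of VAV1 that are made in many tissues, were at 15.7 and 3.35 RPKM in WT and 13.5 and 3.12 RPKM in CHD7 KO, so that VAV1, at 0.835 RPKM, was the least abundant of the 3 also where it was on. RHOA, a small GTPase gene and the list's highest, was at 82.4 RPKM in WT and 77.1 RPKM in CHD7 KO. Signalling partners best known from blood cells were at mixed levels. The lymphocyte kinase gene LCK was at 15.5 RPKM in WT and 15.0 RPKM in CHD7 KO, whereas LCP2, the adaptor that VAV1 binds in T cells, had 9 and 6 counts in WT, against 16 and 8 in CHD7 KO. The kinase gene BTK had 35 and 22 counts in WT, against 9 and 0 in CHD7 KO, and was not called.

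In the CHP list, 15 of 16 genes passed the filter and 0 were called in either direction, with 2 at an unadjusted edgeR quasi-likelihood p under 0.05 and 0 called by DESeq2. The median log2 fold change was -0.01. CHP1, the widely expressed paralog of CHP2 and the list's highest gene, was at 33.4 RPKM in WT and 35.0 RPKM in CHD7 KO, against 1.14 RPKM for CHP2 in CHD7 KO. PPP3CA, a calcineurin catalytic subunit, had the list's highest log2 fold change, 0.44 (SE 0.16), which missed the threshold.

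Of 25 genes in the NLR list, 15 passed the filter and 0 were called in either direction, with 1 at an unadjusted edgeR quasi-likelihood p under 0.05 and 0 called by DESeq2. The median log2 fold change was 0.01. NLRP4, NLRP8 and NLRP13 had 0 counts in all 8 libraries, as NLRP10 nearly had outside CHD7 KO. NLRC5, an activator of MHC class I genes, had 37 and 39 counts in WT, against 102 and 102 in CHD7 KO. Its log2 fold change of 1.53 (SE 0.40) missed the threshold, with an FDR of 0.077 by edgeR's quasi-likelihood test with Benjamini-Hochberg adjustment. PYCARD, the inflammasome adaptor, was at 2.76 RPKM in WT and 2.61 in CHD7 KO, while CASP1, the protease it recruits, had at most 2 counts in any library. NLRX1, a mitochondrial NLR and the list's highest gene by CPM, had a log2 fold change of -0.10 (SE 0.28).

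In the TCEAL and BEX list, 12 of 13 genes passed the filter and 0 were called in either direction, with 2 at an unadjusted edgeR quasi-likelihood p under 0.05 and 0 called by DESeq2. The median log2 fold change was 0.12. In WT, TCEAL8 stood at 80.5 RPKM and TCEAL4 at 8.20 RPKM, whereas TCEAL6 had the 3 and 3 counts given above. BEX3, the list's highest gene, was at 132 RPKM in WT and 192 RPKM in CHD7 KO, a log2 fold change of 0.54 (SE 0.15) that missed the threshold. TCEAL7 had 71 and 52 counts in WT, against 102 and 99 in CHD7 KO (log2 fold change 0.81, SE 0.32), which also missed it.

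In HERVH KD and in HERVH KO, 0 of the 74 genes of the 5 lists were called in either direction by edgeR's quasi-likelihood test, with 12 (16.2%) and 4 (5.41%) at an unadjusted p under 0.05, beside 19.0% and 2.63% of all genes tested. DESeq2 called 1 gene lower in HERVH KD, the fetal cytochrome CYP3A7, and 0 in HERVH KO.

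Because most of the 5 genes are known from differentiated tissues, markers of such tissues were counted beside them. The 12 blood cell markers summed to 10.2 to 12.9 CPM in WT and to 14.7 to 16.5 CPM in CHD7 KO, with 10 over the floor in both and CD33 at 0 in CHD7 KO. The 12 liver and endoderm markers summed to 8.27 to 14.4 CPM in WT and 11.2 to 12.9 CPM in CHD7 KO, with 6 over the floor in WT and 9 in CHD7 KO, and TTR and FGB at 0 in both. That similar sum held opposite differences: of 4 tested markers, 3 were higher and 1 lower in CHD7 KO. The lower one was FOXA2, at 3.17 CPM in WT and 0.511 CPM in CHD7 KO. The neural markers summed to 145 to 154 CPM in WT and to 119 to 123 CPM in CHD7 KO, with 10 over the floor in WT and 9 in CHD7 KO and NEUROG1 at 0 in both. The epidermal markers summed to 56.3 to 62.2 CPM in WT and 58.6 to 63.7 CPM in CHD7 KO, with 5 over the floor and KRT14, KRT1 and IVL at 0 in both. Of the genes that passed the filter, 6 blood, 4 liver, 9 neural, 4 epidermal and 12 pluripotency markers, edgeR's quasi-likelihood test called 0 higher in CHD7 KO and 1 lower, the neuronal gene STMN2 (log2 fold change -2.0), whose call was lost without WT replicate 1 or either CHD7 KO library. An unadjusted p under 0.05 by that test was found for 1 blood, 1 liver, 5 neural, 1 epidermal and 3 pluripotency markers. For the neural list that was 55.6%, beside 10.9% of all genes tested. Neural markers moved both ways: 7 were lower and 2 higher, DCX (log2 fold change 0.93) and ELAVL4 (2.45). DESeq2 called LCP1 higher and FOXA2 and STMN2 lower. The summed blood marker level was higher in CHD7 KO, where VAV1 was on. Of the 6 tested blood markers, 4 were higher there and 2, LAPTM5 and WAS, were lower. LCP1 alone was at 0.744 CPM in WT, 3.57 CPM in CHD7 KO and 4.33 CPM in HERVH KD. In HERVH KD, where VAV1 had 0 and 2 counts, the blood markers summed to 12.2 to 18.9 CPM. The part of blood cells in the VAV1 counts was not tested.

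**Figure D4:**
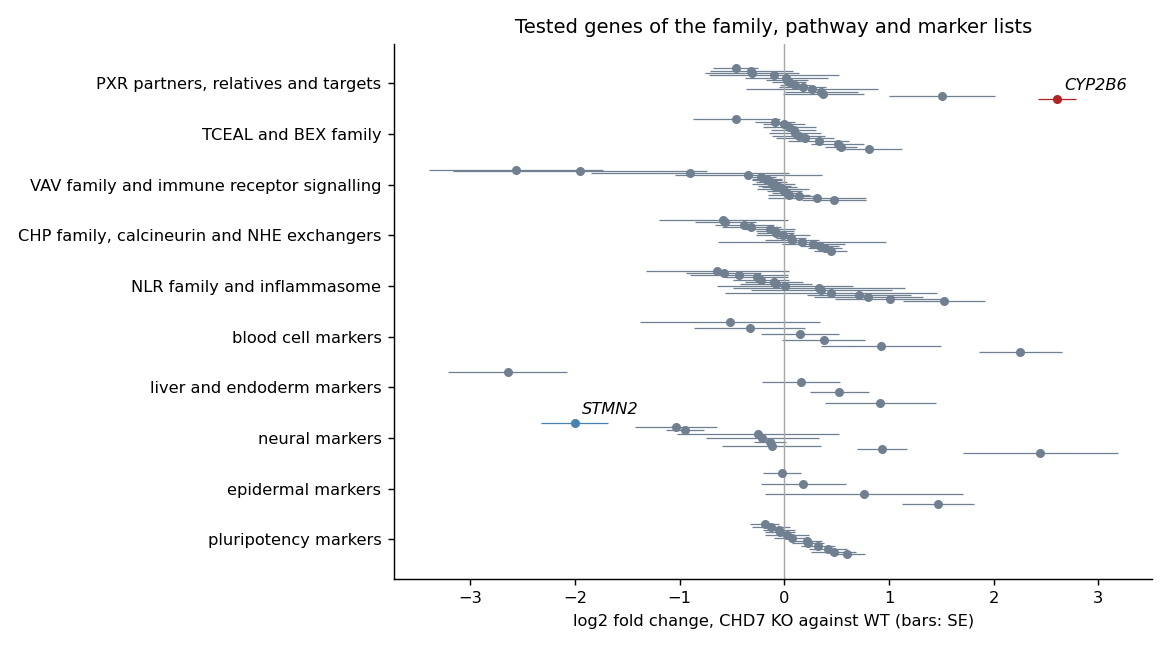
Log2 fold change in CHD7 KO against WT (x axis) for the tested genes of the 5 family and pathway lists and 5 marker lists (y axis), with points for genes, bars for SE and colour for a call by edgeR's quasi-likelihood test. CYP2B6 at 2.61 was called higher and STMN2 at -2.0 lower, and no other gene was called.

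Position was not used to choose the 5 genes, and so their neighbours could be tested. A gene's start coordinate was taken as its lower coordinate, whatever its strand, so for a minus-strand gene it marks the far end. Within 500 kb of the 5 start coordinates lay the start coordinates of 159 other genes. Of these, 84 passed the filter, with 50 higher and 34 lower in CHD7 KO and a median log2 fold change of 0.10. 1 was called higher and 0 lower by edgeR's quasi-likelihood test, with 12 (14.3%) at an unadjusted p under 0.05 and the same 1 called by DESeq2. Over all genes tested, 0.337% were called higher and 10.9% had such a p. Around NR1I2, TCEAL5, VAV1 and CHP2, 0 of 14, 23, 19 and 17 tested neighbours were called by either tool, with 1, 5, 1 and 1 at an unadjusted edgeR quasi-likelihood p under 0.05. The called gene was 1 of 11 tested around NLRP10, where 4 (36.4%) had such a p and 9 were higher and 2 lower. MORF4L2, a chromatin-associated gene with its start coordinate 402 kb above that of TCEAL5, had 11572 and 9371 counts in WT, against 6188 and 4755 in CHD7 KO. Its log2 fold change of -0.84 passed the FDR threshold (0.00934 by edgeR's quasi-likelihood test with Benjamini-Hochberg adjustment) and missed the 2-fold one.

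No gene next to a member was called in CHD7 KO. GSK3B, a kinase gene 2.83 kb beyond the end of NR1I2, had 2693 and 2574 counts in WT, against 3200 and 2532 in CHD7 KO (log2 fold change 0.22, SE 0.16), and CFAP91 on the other side had a log2 fold change of 0.15. SH2D3A, an adaptor gene 5.25 kb from VAV1, had 302 and 302 counts against 392 and 377 (0.45, SE 0.24), and ADGRE1 on the far side was at 0 in all 8 libraries. EIF3F, a translation initiation factor gene 4.80 kb from NLRP10, had 4350 and 4322 counts against 4423 and 3550 (log2 fold change -0.03, SE 0.14), and OR10A3 on the other side had 0 and 0 counts in WT, against 3 and 3 in CHD7 KO. ERN2 and PRKCB flank CHP2 at 41.8 and 77.0 kb, with log2 fold changes of 0.34 and 0.39, and TCEAL8 and BEX2 flank TCEAL5 at 18.5 and 32.6 kb, with -0.09 and 0.14. PRKCB, a protein kinase C gene, was called lower in HERVH KD by both tools (log2 fold change -1.39), while CHP2 was at 0 in all 6 libraries outside CHD7 KO.

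The neighbour that was called is the lncRNA gene ENSG00000254951 (GRCh37 chr11:7775940-7927502, minus strand). Its lower coordinate is 203 kb below that of NLRP10, 7979084, but its upper end, where a minus-strand gene begins, is much nearer. The lncRNA gene had 9 and 7 counts in WT, against 63 and 56 in CHD7 KO, with 43 and 33 in HERVH KD and 7 and 12 in HERVH KO. Unlike NLRP10, it was thus also higher in the HERVH KD libraries than in WT, without overlap, a difference that DESeq2 called and edgeR's quasi-likelihood test did not (FDR 0.0178). It rose in CHD7 KO by a log2 fold change of 2.97 (SE 0.48, FDR 0.00546 by edgeR's quasi-likelihood test with Benjamini-Hochberg adjustment). This call was lost when any 1 of the 4 libraries was left out, with an FDR of 0.0416 to 0.0969. OR5E1P, an olfactory receptor pseudogene within its span and on the opposite strand, had 0 and 2 counts in WT, 23 and 25 in CHD7 KO, 5 and 14 in HERVH KD and 4 and 1 in HERVH KO. Its log2 fold change in CHD7 KO was 4.51 (SE 1.05), the highest among the tested neighbours of NLRP10. It was not called, with an FDR of 0.0463 by edgeR's quasi-likelihood test with Benjamini-Hochberg adjustment. The setting of strand in the counting is not given in the sources used here, so reads of the pair may not be separable.

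**Figure D5:**
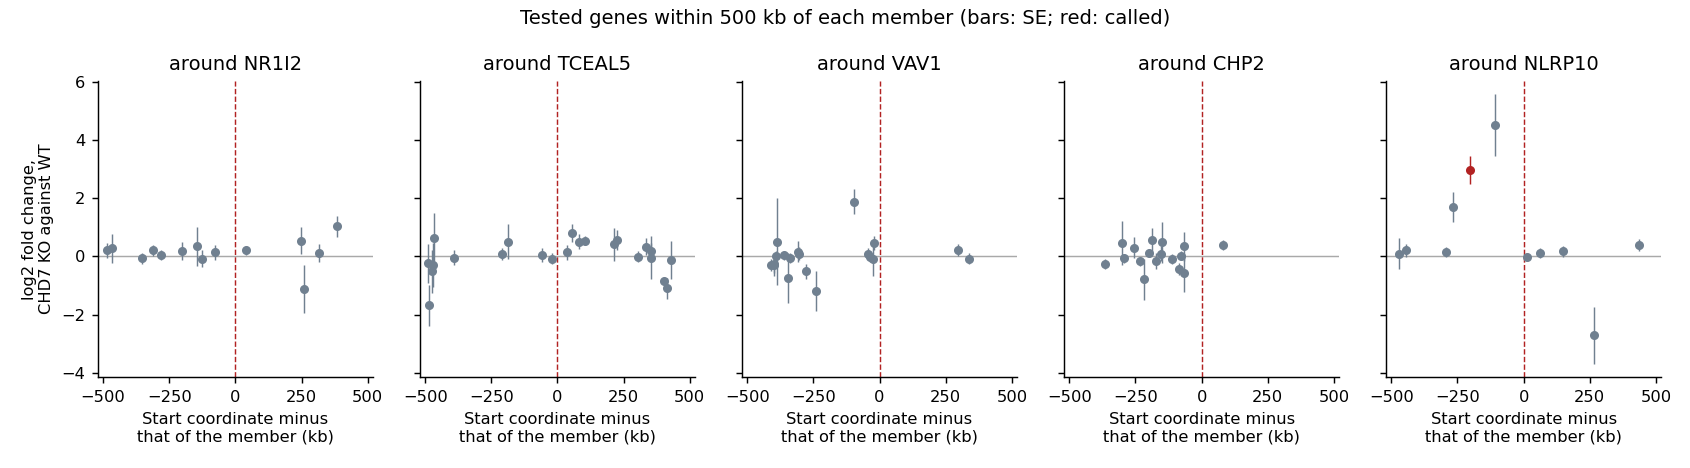
Log2 fold change in CHD7 KO against WT (y axis, bars for SE) of tested genes within 500 kb of each of the 5 genes, by the difference of start coordinates in kb (x axis), with the member at the dashed line. Only ENSG00000254951, near NLRP10, is called (red, 2.97), and the median over the 84 genes is 0.10.

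The genes most like the 5 members over the 8 libraries were ranked by Pearson's r with the mean of the members' centred log2 CPM, among 23469 genes. Because the members' profile is high in CHD7 KO and flat elsewhere, this is a ranking by that one contrast, and 113 genes had an r over 0.95. The first was the processed pseudogene DUX4L27 (r = 0.996), with 0 counts in all 6 libraries outside CHD7 KO and 21 and 13 within it. PCDHB5, a clustered protocadherin gene (r = 0.993), had 23 and 28 counts in WT, 646 and 465 in CHD7 KO, 40 and 19 in HERVH KD and 31 and 24 in HERVH KO. ENSG00000249842, named above, had an r of 0.990. GDF3, a TGF-beta family ligand of pluripotent cells (r = 0.990), had 55 and 72 counts in WT, against 948 and 793 in CHD7 KO, with 48 to 63 in the other 4 libraries. ENSG00000135847, for which no symbol was found, had an r of 0.989, with 786 and 729 counts in WT, against 1239 and 988 in CHD7 KO. PCDHB5 and GDF3 were thus read in every library and higher in CHD7 KO, whereas the 5 members went from near 0.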

How the data were processed

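H9 hESCs of 4 conditions were profiled by RNA-seq, with 2 libraries each. The authors used STAR on hg19 with Ensembl GRCh37.75, and the deposited values are HTSeq counts per gene, whole and not normalized; tool versions and the strand setting are not given in the sources used here. The 5 members and the gene lists were chosen with earlier results of these data known. Symbols and GRCh37 positions came from GENCODE, which placed 96.1% of genes, and promoters from RefSeq.

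Counts were scaled by TMM in edgeR 4.0.16 (R 4.3.3), filtered by filterByExpr, and fitted over all 8 libraries with group as the only factor (4 residual degrees of freedom). Contrasts with WT were tested by edgeR's quasi-likelihood test, with calls at a Benjamini-Hochberg FDR below 0.01 and at least 2-fold. P-values measure only the spread between the libraries of a group, which may be technical. CPM used TMM-scaled library sizes, and RPKM divides it by GENCODE exon length in kilobases. Log2 CPM used a prior count of 2. Counting intervals are exact 95% intervals, and they and the floor of 3 counts cover counting error only. Transcripts were aligned with blastn 2.17.0. Named genes were the members, other genes that met the counts rule, the nearest coding genes, called neighbours, called list genes with each list's highest gene, and the 5 most alike genes; other list genes, markers, OR5E1P and MORF4L2 were named after their values were seen. Some genes that this rule covers are not reported here. The fit was tested on simulated counts. HERVH KD and HERVH KO were not compared with each other for the members, since none exceeded 3 counts in either. Alternatives were DESeq2 1.42.0, its size factors, no filter, fits of 4 libraries, an FDR of 0.05, a replicate block and leaving out each library.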

Additional observations from a re-analysis of the deposited data

How the results depend on the processing

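With DESeq2 size factors or without either CHD7 KO library, the fold over WT or its floor ranged from 33.8 to 37 for NR1I2, from 130 to 149 for TCEAL5, from 109 to 201 for VAV1, from 31.2 to 33.2 for CHP2 and from 57.9 to 91.5 for NLRP10. The 8 genes that met it became 21 at 10 counts, 4, all members, at 40 counts, 5 with 0 counts required in WT, of which 2 were members, and 4, also all members, with counts scaled to the smallest library. Leaving out a library can only add genes to this rule, and gave 10 to 11.

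Counts of calls depended on the test, so 79 and 55 are not exact numbers. Genes called higher in CHD7 KO numbered 166 with DESeq2, 219 without the filter, 222 with only the libraries of WT and CHD7 KO, and 184 at an FDR of 0.05, and 17 to 27 when a library was left out. Genes called lower numbered 106, 149, 127 and 106, and 8 to 24. In HERVH KD, 104 were higher with DESeq2, 166 without the filter, 5 with 4 libraries and 107 at an FDR of 0.05, and 2 to 455 with a library left out; 55 were lower with DESeq2 size factors, 240 with DESeq2, 340 without the filter, 1 with 4 libraries and 243 at an FDR of 0.05, and 0 to 451 with a library left out. In HERVH KO, 1 was higher without the filter, and 14 were lower with DESeq2, 29 without the filter and 17 at an FDR of 0.05. The cause was not tested.

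The 2 calls in the family and marker lists, CYP2B6 and STMN2, became 4 with DESeq2 and 5 without the filter, with 4 libraries or at an FDR of 0.05, and 1 to 2 with a library left out. CYP2B6 was called in every alternative run. STMN2 lost its call without WT replicate 1, CHD7 KO replicate 1 or CHD7 KO replicate 2. The 1 called neighbour became 0 within 100 kb by lower coordinate, 3 without the filter or with 4 libraries, and 0 with any 1 library left out. The loss at 100 kb comes from that measure of distance. The upper end of ENSG00000254951, 7927502, does lie within 100 kb of NLRP10, whose lower coordinate is 7979084.

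The labels give replicates a shared number only, and deviations of same-numbered libraries correlated at -0.07 to 0.12, so they were not treated as pairs. With the replicate number as a replicate block, 88 genes were higher and 65 lower in CHD7 KO, 26 and 44 in HERVH KD and 0 and 6 in HERVH KO, with 3 calls in the lists and 1 among neighbours.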

Other observations

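Some marker genes outside the 5 members differed between conditions near the threshold, and they were named after their values were seen. LCP1, an actin-bundling protein of blood cells, had 16 and 16 counts in WT, 81 and 63 in CHD7 KO, 89 and 52 in HERVH KD and 21 and 9 in HERVH KO. By edgeR's quasi-likelihood test with Benjamini-Hochberg adjustment its FDR was 0.01002 in CHD7 KO, just above the threshold, and 0.00956 in HERVH KD. FOXA2, an endoderm transcription factor, had 30 and 106 counts in WT, 7 and 13 in CHD7 KO, 188 and 133 in HERVH KD and 93 and 94 in HERVH KO. C3, a complement gene on the minus strand, has its lower coordinate 95 kb below that of VAV1 and its upper end, 6730573, nearer. C3 had 22 and 21 counts in WT, against 94 and 56 in CHD7 KO. In HERVH KD it had 3 and 2 counts and in HERVH KO 2 and 1, and it was not called in any of the 3 comparisons, with an FDR of 0.0411, 0.0421 and 0.0942 by edgeR's quasi-likelihood test.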
